A study of Homo sapiens with 6 samples.

Results

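The genes described here drive and carry out mitosis: the kinases and cyclins that start it, the spindle checkpoint, the kinetochore, the chromosomal passenger complex, mitotic kinesins, spindle and cytokinesis proteins, and the cohesin and condensin rings that hold and fold chromosomes. Their RNA levels were measured by array in clones of H9, a human embryonic stem cell line. A fixed list of 60 genes was looked up among 14884 genes with a named row on the array, and 47 of the 60 had such a row, each a single one. The other 13 (UBE2C, NUF2, SPC24, SPC25, CENPE, CENPF, TPX2, DLGAP5, ASPM, ANLN, NCAPD2, NCAPG and NCAPH) were not analysed here. The choice used no measured value, although it was made with earlier results of these data known.

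Cells of the gamma_ON group had been transduced with a pHIV vector for the histone variant H2A.X with S139E, an acidic stand-in for the serine that is phosphorylated at DNA breaks. In gamma_OFF the vector's H2A.X had the changes T136A and S139A and so cannot be phosphorylated at those residues, and CTRL cells received the vector with eGFP alone. In every group the EF1α promoter drove a transcript with an IRES and eGFP, and cells that showed both GFP and TRA 1-60, a stem cell surface antigen, were sorted, seeded one by one and grown as colonies on mouse fibroblast feeders, in feeder-conditioned medium with 8 ng/ml bFGF. Each group had 2 arrays, and the labels do not say whether both came from the same clone or from separate cultures, so the p-values reflect no more than sample-to-sample spread, part or all of which may be technical. No group received unaltered H2A.X, so the substitutions cannot be told apart from added H2A.X in comparisons with CTRL, and the labels name no removal of the cells' own H2AX gene.

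Cells enter mitosis when CDK1 bound to cyclin A or B becomes active. Kinetochores then attach each chromosome to spindle microtubules, and the checkpoint holds back the anaphase-promoting complex until attachment is complete. Embryonic stem cells are known for short gap phases and rapid division, so most of them are cycling at any time. Most genes of this programme are switched on together in G2. Many of their promoters bind NF-Y at CCAAT boxes and the DREAM and MuvB complexes at an element called the CHR. In bulk RNA, a change in the share of cells in mitosis cannot be told apart from a change in RNA per cell.

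The promoters of the mitotic genes carried these elements often. Of the 47 genes, 42 had an entry in the RefSeq promoter table (GRCh38.p14), which covers 250 bases before to 50 bases after the annotated start. CCAAT was searched on both strands, so that it also reads as ATTGG, and the CHR was searched on both strands as TTTGAA or TTCGAA. The forms of CCAAT on both strands overlap in the run CCAATTGG and were counted separately. A CCAAT box lay in 31 of the 42 promoters (73.8%), against 34.6% of all 35116 promoters of that length. A CHR word lay in 30 of the 42 (71.4%), against 16.4% of all promoters, and 24 of the 42 (57.1%) held both, against 6.38%. Such matches describe letters and show no binding. The 250 bases before the start are printed 5′ to 3′, with CCAAT boxes and CHR words in capitals. The first 4 genes were chosen because they passed a test, and CCNB2 because it shows the regular box spacing.
HMMR: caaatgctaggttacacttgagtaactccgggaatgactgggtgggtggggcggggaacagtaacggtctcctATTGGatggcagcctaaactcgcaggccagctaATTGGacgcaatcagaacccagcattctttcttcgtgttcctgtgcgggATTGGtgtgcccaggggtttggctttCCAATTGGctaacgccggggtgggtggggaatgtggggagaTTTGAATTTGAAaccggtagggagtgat
KIF20A: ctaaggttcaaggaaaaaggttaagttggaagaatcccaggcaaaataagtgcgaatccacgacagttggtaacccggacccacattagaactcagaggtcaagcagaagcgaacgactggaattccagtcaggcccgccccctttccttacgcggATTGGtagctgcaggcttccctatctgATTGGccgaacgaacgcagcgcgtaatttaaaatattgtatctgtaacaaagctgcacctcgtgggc
CENPK: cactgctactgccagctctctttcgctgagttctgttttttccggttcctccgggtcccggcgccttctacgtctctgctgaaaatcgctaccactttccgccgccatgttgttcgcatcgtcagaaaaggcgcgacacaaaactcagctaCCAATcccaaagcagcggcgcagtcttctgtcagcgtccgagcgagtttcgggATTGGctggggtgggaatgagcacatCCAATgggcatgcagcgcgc
PTTG1: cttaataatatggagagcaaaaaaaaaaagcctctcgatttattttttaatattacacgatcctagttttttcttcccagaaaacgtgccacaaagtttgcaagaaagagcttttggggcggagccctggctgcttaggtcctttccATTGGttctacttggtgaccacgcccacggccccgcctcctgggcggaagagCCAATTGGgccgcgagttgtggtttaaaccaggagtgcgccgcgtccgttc
CCNB2: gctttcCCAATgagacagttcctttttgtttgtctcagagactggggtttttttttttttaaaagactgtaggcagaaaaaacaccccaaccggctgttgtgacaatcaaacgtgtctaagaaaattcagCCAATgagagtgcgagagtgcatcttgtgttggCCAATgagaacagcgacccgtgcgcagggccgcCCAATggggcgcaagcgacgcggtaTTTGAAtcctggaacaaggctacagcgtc
These windows lie at chr5:163460382-163460631 on the plus strand for HMMR, chr5:138178862-138179111 on the plus strand for KIF20A, chr5:65563169-65563418 on the minus strand for CENPK, chr5:160421605-160421854 on the plus strand for PTTG1 and chr15:59104896-59105145 on the plus strand for CCNB2. HMMR had 5 CCAAT boxes and a CHR word repeated in tandem, at bases -28 and -22 counted from the start. CCNB2 had 4 CCAAT boxes, of which the 3 nearest the start stood 33 bases apart, and a CHR word at base -29. KIF20A had 2 CCAAT boxes, while CENPK and PTTG1 had 3 each, and none of these promoters held a CHR word in the window searched.

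The arrays differed in signal range. The SD of log2 levels over all genes was 1.64 on gamma_OFF replicate 2, against 1.70 to 1.81 on the other 5 arrays. Gamma_OFF replicate 2 thus had the narrowest signal range, and gamma_ON replicate 1, at 1.81, had the widest. The pluripotency factor SOX2 had log2 levels of 11.73 and 11.57 in gamma_ON, 11.64 and 11.60 in gamma_OFF, and 11.39 and 11.43 in CTRL, and POU5F1 and NANOG were measured on every array between 6.26 and 8.05. H2AX had no named row, so the vectors' own product was not checked here.

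The array pattern of the mitotic genes was uneven between replicates. Gamma_ON replicate 1 was the highest of the 6 arrays for 40 of the 47 genes, and gamma_OFF replicate 2 the lowest for 25. Among all genes these arrays were highest and lowest for 27.1% and 29.3%. Both gamma_ON arrays lay above all 4 other arrays for 32 of the 47 genes (68.1%), against 17.4% of all genes. Relative to each gene's mean over the 6 arrays, the median mitotic gene stood at 0.23 and 0.14 log2 units in gamma_ON, at -0.01 and -0.20 in gamma_OFF, and at -0.09 and -0.09 in CTRL. In the median gene, replicates differed least in CTRL. The second replicate minus the first had a median of -0.09 in gamma_ON, with 45 of 47 genes lower on the second array, and of -0.20 in gamma_OFF, with 36 of 47 lower, against 0.01 in CTRL, with 23 of 47 lower. The widest gap within a pair was that of CCNB1 in gamma_OFF, at -0.78.

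**Figure D1:**
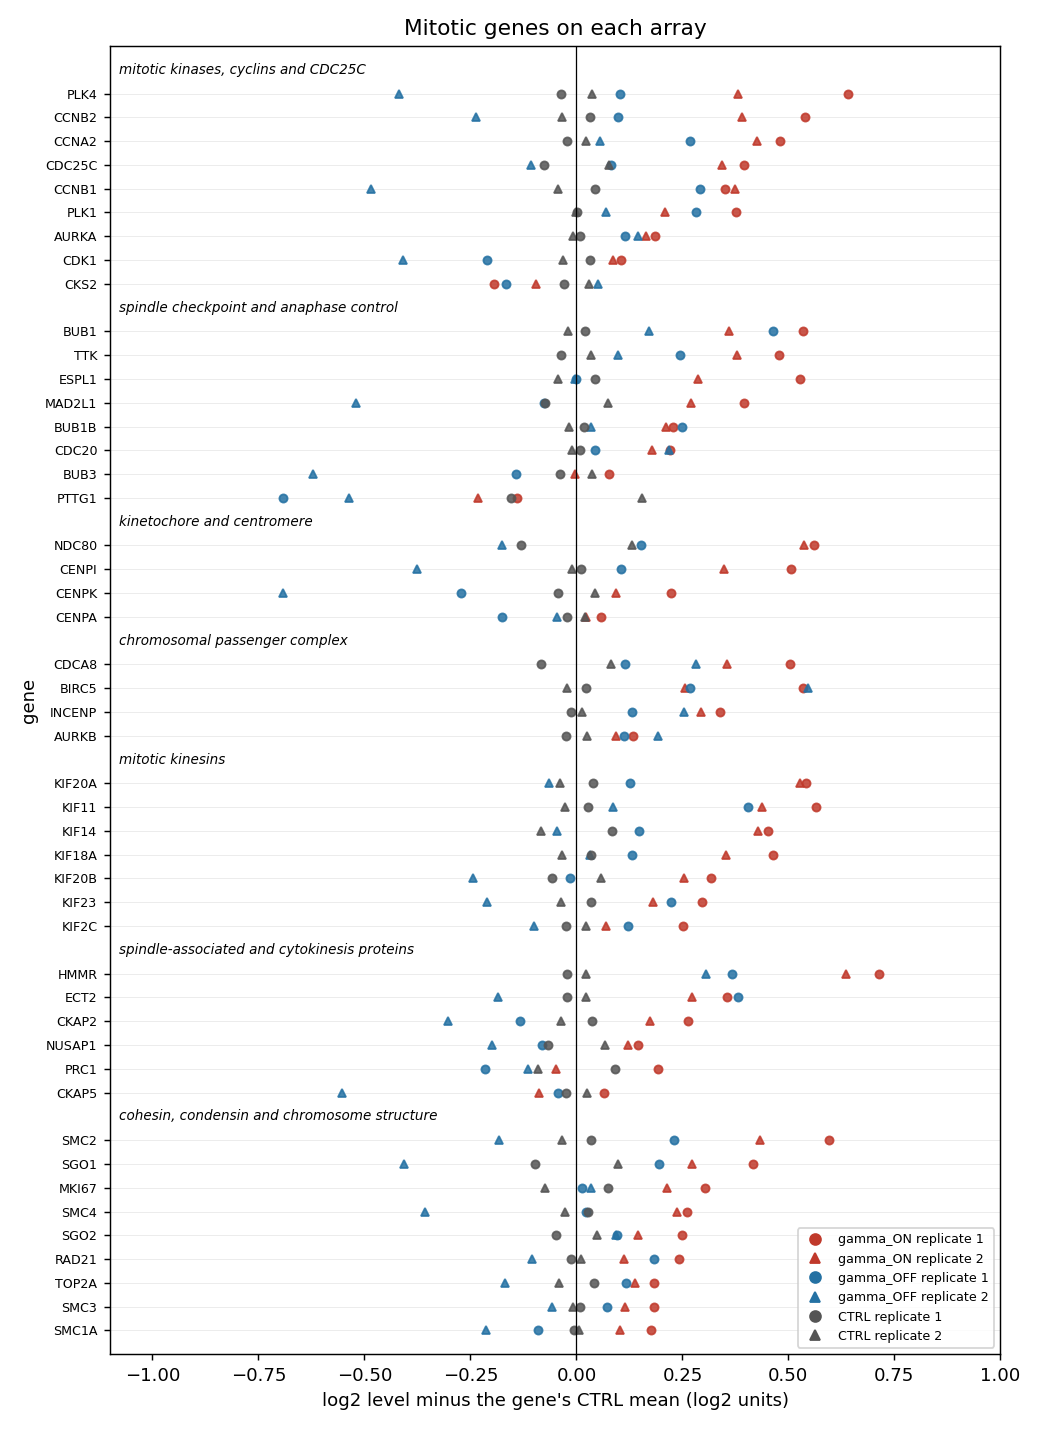
Log2 level of each of the 47 mitotic genes on each array, minus the gene's CTRL mean (x axis, log2 units), with genes grouped by role on the y axis; circles are replicate 1 and triangles replicate 2. Gamma_ON points lie mostly to the right of CTRL, and gamma_OFF replicate 2 holds the points furthest left for most genes.

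The comparison of gamma_ON with CTRL sets cells with the phosphomimetic H2A.X vector beside cells with eGFP alone. If the arrays of a group came from the same clone, differences between clones cannot be told apart from those between vectors. Nearly all mitotic genes stood slightly higher in gamma_ON: 44 of 47 log2 fold changes were positive, with a median of 0.29 and quartiles of 0.16 and 0.43, against a median of 0.02 and 54.4% positive over all genes. HMMR, which encodes a spindle-pole and hyaluronan-binding protein, was the only mitotic gene that passed the test (limma over all 14884 genes, Benjamini-Hochberg adjusted p under 0.05). That is 1 of 47 genes, where 1.55% of all genes were called in either direction and 0.739% were called higher, so the count of calls is near the background. At an unadjusted p under 0.05, 20 of the 47 were higher and 0 lower, beside 1287 higher and 916 lower of all 14884 genes. The arrays did not overlap, with gamma_ON higher, for 42 of the 47, beside 30.0% of all genes, and with gamma_ON lower for CKS2 alone, beside 22.3%. The median stayed at 0.29 after each array was centred on its median and was 0.23 after quantile normalization, with 44 and 42 genes positive.

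HMMR had log2 levels of 9.91 and 9.84 in gamma_ON, against 9.18 and 9.22 in CTRL. Both gamma_ON arrays were higher than both CTRL arrays, and the gap was several times the spread within either pair. HMMR rose 1.60-fold, a log2 fold change of 0.67 (SE 0.11, adjusted p = 0.0243). The call was lost when any array of these groups was left out: the adjusted p was 0.23 and 0.139 without gamma_ON replicates 1 and 2, and 0.173 and 0.194 without CTRL replicates 1 and 2. With only gamma_ON and CTRL in the fit, 4 mitotic genes were called higher: HMMR, KIF11, KIF20A and SMC2. In that fit 487 of all 14884 genes were called in either direction, 271 of them higher. Arrays of gamma_ON or CTRL were left out only with all 3 groups in the fit, so whether these 4 calls hold without an array was not tested. Array weights gave 11 mitotic calls, beside 803 calls among all genes. Such weights count arrays with more spread less, but with 2 arrays per group they cannot tell which array of a pair varied. The lowest weight, 0.544, was in gamma_OFF, which is no part of this comparison but shares its estimate of spread.

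Among the kinases, cyclins and CDC25C, 8 of 9 genes had positive values and 0 passed. PLK4, the kinase that starts centriole duplication, had levels of 9.16 and 8.90 in gamma_ON, against 8.49 and 8.56 in CTRL, a difference of 0.51 (SE 0.18, adjusted p = 0.211). CCNB2, a cyclin B, stood at 9.46 and 9.31 in gamma_ON, against 8.95 and 8.88 in CTRL (0.46, SE 0.14, adjusted p = 0.158). CCNA2, cyclin A, stood at 10.84 and 10.79 in gamma_ON, against 10.34 and 10.39 in CTRL (0.45, SE 0.12, adjusted p = 0.117). In each of these the groups did not overlap, and the 2 CTRL arrays were close together. CDK1 itself, the kinase that these cyclins activate, had 8.87 and 8.85 in gamma_ON, against 8.79 and 8.73 in CTRL (0.10, SE 0.12, adjusted p = 0.782). CCNB1, another cyclin B, had 9.58 and 9.60 in gamma_ON, against 9.27 and 9.18 in CTRL (0.36, SE 0.21, adjusted p = 0.483). CKS2, a small protein that binds CDK1, had the lowest fold change of the group, with 10.45 and 10.55 in gamma_ON, against 10.61 and 10.67 in CTRL (-0.15, SE 0.12, adjusted p = 0.648).

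In the spindle checkpoint and anaphase group 7 of 8 genes had positive values and 0 passed. The checkpoint kinase BUB1 had 10.63 and 10.45 in gamma_ON, against 10.11 and 10.07 in CTRL, a difference of 0.45 (SE 0.14, adjusted p = 0.16). TTK, the kinase also called MPS1, differed by 0.43 (SE 0.12, adjusted p = 0.126), and ESPL1, the protease separase that cuts cohesin, by 0.41 (SE 0.13, adjusted p = 0.162). PTTG1, the securin that restrains separase, had the lowest fold change of the group, with 6.35 and 6.26 in gamma_ON, against 6.34 and 6.65 in CTRL (-0.19, SE 0.14, adjusted p = 0.59) and overlapping arrays. PTTG1 has near-identical copies elsewhere in the genome, so all its values are uncertain.

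The kinetochore group had 4 measured genes of 9, all positive and 0 called. NDC80, the microtubule-binding core of the outer kinetochore, had 9.28 and 9.26 in gamma_ON, against 8.59 and 8.85 in CTRL (0.55, SE 0.15, adjusted p = 0.117). Both gamma_ON arrays were above both CTRL arrays. CENPA, the histone H3 variant that marks centromeres, was at the other end, with 8.33 and 8.29 in gamma_ON, against 8.25 and 8.29 in CTRL (0.04, SE 0.11, adjusted p = 0.913). All 4 passenger complex genes were positive as well, and 0 were called. CDCA8, the borealin gene, had 9.16 and 9.01 in gamma_ON, against 8.57 and 8.73 in CTRL (0.43, SE 0.13, adjusted p = 0.154). AURKB, the kinase of the complex, had the lowest fold change, with 10.47 and 10.43 in gamma_ON, against 10.31 and 10.36 in CTRL (0.11, SE 0.11, adjusted p = 0.712).

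All 7 kinesin genes were positive and had groups that did not overlap, with a median of 0.41, and 0 passed. KIF20A, a motor of the midzone and cytokinesis, led with 10.25 and 10.23 in gamma_ON, against 9.75 and 9.67 in CTRL (0.53, SE 0.12, adjusted p = 0.0706). KIF11, the motor that pushes spindle poles apart, had 10.89 and 10.76 in gamma_ON, against 10.35 and 10.29 in CTRL (0.50, SE 0.14, adjusted p = 0.121). KIF2C, which depolymerises microtubules at centromeres, had the lowest fold change, with 9.12 and 8.94 in gamma_ON, against 8.84 and 8.89 in CTRL (0.16, SE 0.13, adjusted p = 0.623). Apart from HMMR, the fold changes of the spindle and cytokinesis group went up to 0.31 for ECT2, the exchange factor that activates RhoA at the cleavage site (SE 0.17). The lowest was that of the microtubule polymerase CKAP5, with 10.72 and 10.57 in gamma_ON, against 10.63 and 10.68 in CTRL (-0.01, SE 0.17, adjusted p = 0.984) and overlapping arrays.

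The cohesin, condensin and chromosome structure group had 9 measured genes of 12, all positive, none with overlapping arrays, and 0 called. SMC2, the condensin ATPase, had 9.88 and 9.72 in gamma_ON, against 9.32 and 9.25 in CTRL (0.51, SE 0.15, adjusted p = 0.15). The fold changes of the cohesin ring genes SMC1A, SMC3 and RAD21 lay between 0.14 and 0.18, with SMC1A lowest at 9.54 and 9.47 in gamma_ON, against 9.36 and 9.37 in CTRL (0.14, SE 0.11, adjusted p = 0.63). MKI67, the gene of the proliferation antigen Ki-67, had 10.18 and 10.09 in gamma_ON, against 9.95 and 9.80 in CTRL (0.26, SE 0.12, adjusted p = 0.35). TOP2A, the topoisomerase that untangles sister chromatids, had 11.44 and 11.40 in gamma_ON, against 11.30 and 11.22 in CTRL (0.16, SE 0.13, adjusted p = 0.628). The group medians thus ran from 0.18 for spindle and cytokinesis genes to 0.41 for kinesins.

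**Figure D2:**
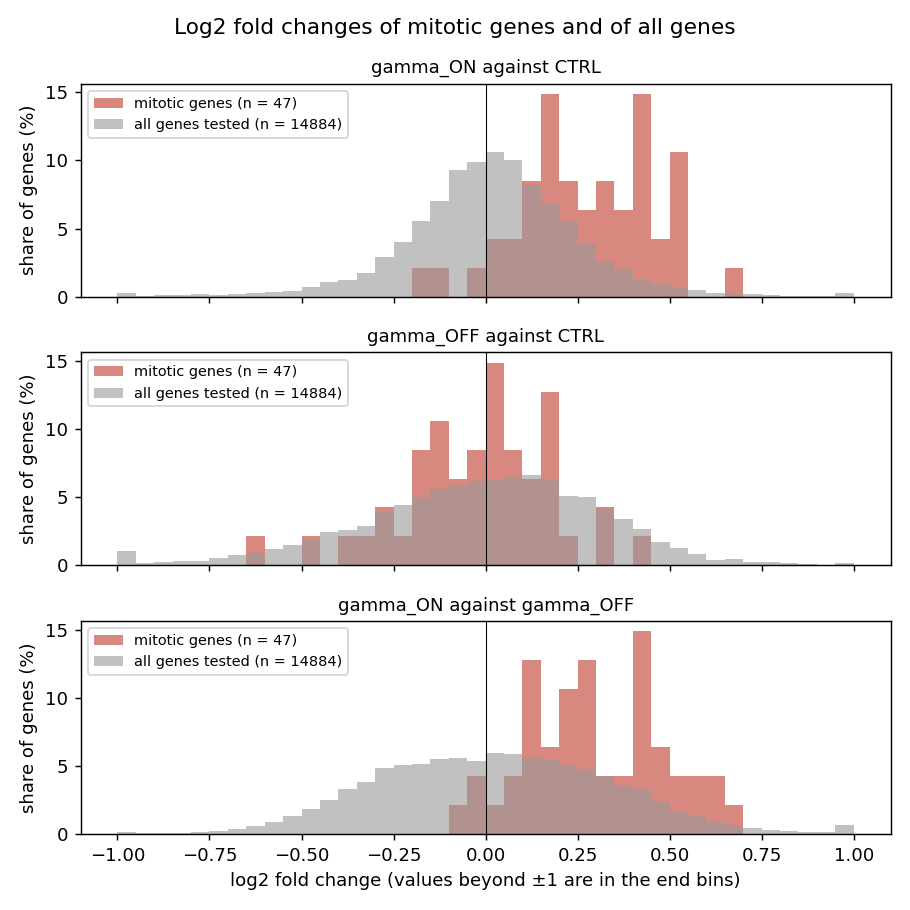
Share of genes (y axis, %) by log2 fold change (x axis) for the 47 mitotic genes and for all 14884 genes, in the 3 comparisons. The mitotic genes have medians of 0.29 for gamma_ON against CTRL, 0.01 for gamma_OFF against CTRL and 0.29 for gamma_ON against gamma_OFF, while all genes have medians of 0.02, 0.01 and 0.02.

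The comparison of gamma_OFF with CTRL sets cells with the non-phosphorylatable H2A.X vector beside cells with eGFP alone. The mitotic genes split evenly here: 24 of 47 log2 fold changes were positive and 23 negative, with a median of 0.01, against 0.01 and 51.9% positive over all genes. PTTG1 fell and no other mitotic gene passed, which is 1 of 47, where 8.85% of all genes were called, 2.77% higher and 6.08% lower. Arrays did not overlap for 14 genes with gamma_OFF higher, beside 31.1% of all genes, and for 11 with gamma_OFF lower, beside 30.2%. The balance depended on the gamma_OFF array used. Without gamma_OFF replicate 1 the median was -0.11 and 17 genes were positive. Without gamma_OFF replicate 2 the median was 0.11 and 33 genes were positive. Quantile normalization, which gives all arrays the same signal range, put the median at 0.12 with 35 genes positive, and HMMR was then called higher beside the call of PTTG1.

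PTTG1 had levels of 5.80 and 5.96 in gamma_OFF, against 6.34 and 6.65 in CTRL. Both gamma_OFF arrays were lower, while the CTRL arrays were themselves 0.31 apart. PTTG1 fell by 0.61 on the log2 scale (SE 0.14, adjusted p = 0.0333). The adjusted p was 0.0457 without gamma_OFF replicate 1, 0.066 without gamma_OFF replicate 2, 0.0725 and 0.218 without CTRL replicates 1 and 2, and 0.0638 without either gamma_ON array. With dim genes left out PTTG1 was not tested, and CENPK was called lower in its place.

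The 4 measured genes of the passenger complex and the 4 of the kinetochore group differed in sign. The 17 measured kinetochore genes outside the list were mixed, with 7 positive and 10 negative. The 4 passenger complex genes all stood higher in gamma_OFF, with no overlap, though 0 passed: BIRC5, which encodes survivin, had 8.64 and 8.92 in gamma_OFF, against 8.39 and 8.35 in CTRL (0.41, SE 0.14, adjusted p = 0.0995). INCENP, the scaffold of that complex, differed by 0.19 (SE 0.11), and AURKB had 10.45 and 10.53 in gamma_OFF, against 10.31 and 10.36 in CTRL (0.15, SE 0.11, adjusted p = 0.382). The 4 kinetochore genes were all negative, led by CENPK, an inner kinetochore subunit, at 8.38 and 7.96 in gamma_OFF, against 8.61 and 8.70 in CTRL (-0.48, SE 0.15, adjusted p = 0.0771). The gamma_OFF arrays of CENPK were spread widely, and both lay below CTRL. NDC80 stood nearest to 0, with 8.87 and 8.55 in gamma_OFF, against 8.59 and 8.85 in CTRL (-0.01, SE 0.15, adjusted p = 0.966). The arrays of NDC80 and CENPI overlapped with CTRL, and in both genes gamma_OFF replicate 1 lay above both CTRL arrays.

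Checkpoint genes also diverged. BUB1 had 10.56 and 10.26 in gamma_OFF, against 10.11 and 10.07 in CTRL (0.32, SE 0.14, adjusted p = 0.154), whereas BUB3, its binding partner, had 9.99 and 9.51 in gamma_OFF, against 10.09 and 10.17 in CTRL (-0.38, SE 0.16, adjusted p = 0.145). MAD2L1, the gene of the checkpoint effector MAD2, stood at 8.38 and 7.94 in gamma_OFF, against 8.39 and 8.53 in CTRL (-0.30, SE 0.16, adjusted p = 0.234). In BUB3 and MAD2L1 gamma_OFF replicate 2 was far below its pair. CDK1 had 8.55 and 8.35 in gamma_OFF, against 8.79 and 8.73 in CTRL (-0.31, SE 0.12, adjusted p = 0.123). CCNB1 had 9.52 and 8.74 in gamma_OFF, against 9.27 and 9.18 in CTRL (-0.10, SE 0.21, adjusted p = 0.779), so that its gamma_OFF arrays lay on either side of CTRL.

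No gene of the remaining role groups passed in gamma_OFF against CTRL. Among kinesins KIF11 had 10.73 and 10.41 in gamma_OFF, against 10.35 and 10.29 in CTRL (0.25, SE 0.14, adjusted p = 0.253), with no overlap. KIF20B, a motor that acts in cytokinesis, had 9.71 and 9.48 in gamma_OFF, against 9.66 and 9.78 in CTRL (-0.13, SE 0.13, adjusted p = 0.505), with overlap. Of the 7 kinesins 6 had positive values, and KIF11 was the only one whose arrays did not overlap with CTRL. Among structural genes the fold changes ran from -0.17 for the condensin ATPase SMC4 to 0.10 for SGO2, a protector of centromeric cohesin. SMC4 had 9.80 and 9.42 in gamma_OFF, against 9.81 and 9.75 in CTRL (-0.17, SE 0.14, adjusted p = 0.447). SGO2 had 7.15 and 7.15 in gamma_OFF, against 7.01 and 7.11 in CTRL (0.10, SE 0.11, adjusted p = 0.593). PLK1, the kinase that acts at centrosomes and kinetochores, led its group, with 11.42 and 11.21 in gamma_OFF, against 11.14 and 11.13 in CTRL (0.18, SE 0.13, adjusted p = 0.37). The PLK1, KIF11 and SGO2 arrays did not overlap, and those of SMC4 did. CKAP5 was the lowest spindle gene, with 10.62 and 10.10 in gamma_OFF, against 10.63 and 10.68 in CTRL (-0.30, SE 0.17, adjusted p = 0.257). HMMR had 9.57 and 9.51 in gamma_OFF, against 9.18 and 9.22 in CTRL, a difference of 0.34 (SE 0.11, adjusted p = 0.0886). Its gamma_OFF arrays lay above CTRL and below the gamma_ON arrays given earlier. MKI67 had 9.89 and 9.91 in gamma_OFF, against 9.95 and 9.80 in CTRL (0.02, SE 0.12, adjusted p = 0.902), and TOP2A had 11.38 and 11.09 in gamma_OFF, against 11.30 and 11.22 in CTRL (-0.03, SE 0.13, adjusted p = 0.91).

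**Figure D3:**
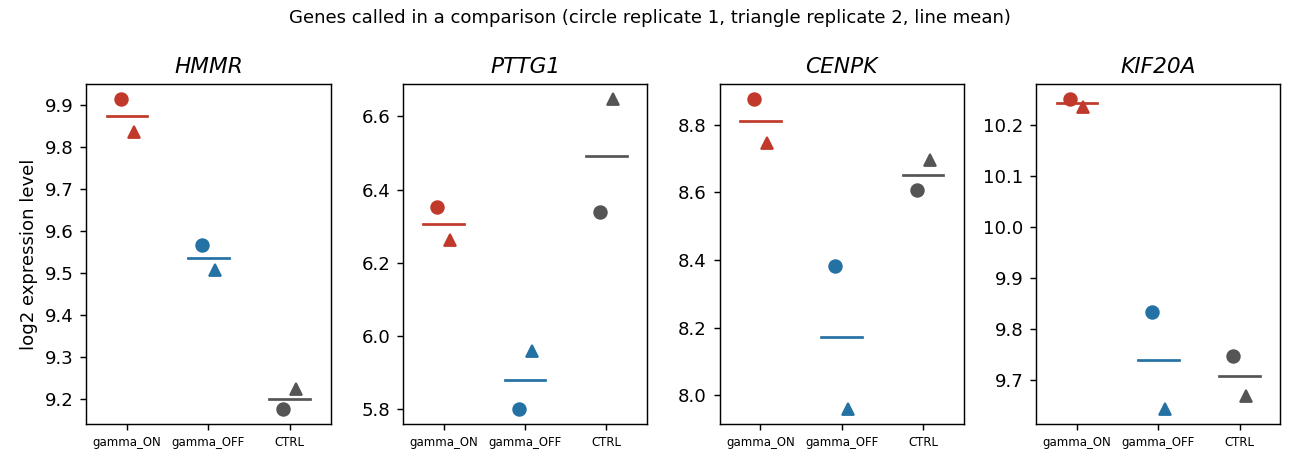
Log2 expression level (y axis, a separate range in each panel) of HMMR, PTTG1, CENPK and KIF20A on the gamma_ON, gamma_OFF and CTRL arrays; circles are replicate 1, triangles replicate 2 and lines group means. HMMR separates all 3 groups, PTTG1 and CENPK are lowest in gamma_OFF, and KIF20A is highest in gamma_ON.

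The comparison of gamma_ON with gamma_OFF sets the H2A.X vectors against each other. Of the 47 genes 44 had positive values, with a median of 0.29 and quartiles of 0.15 and 0.42, against 0.02 and 52.9% positive over all genes. CENPK and KIF20A were higher in gamma_ON by the test, 2 of 47 in all, where 5.99% of all genes were called, 3.98% higher and 2.02% lower. Arrays did not overlap, with gamma_ON higher, for 35 of 47, beside 35.8% of all genes, and with gamma_ON lower for 0, beside 27.6%. This shift was smaller once the arrays shared a signal range: after quantile normalization the median was 0.11, 36 genes were positive and 0 were called, with CENPK and KIF20A at an adjusted p of 0.119 each. With genes of a mean log2 level up to 6.405 left out, the median over all remaining genes was itself 0.12 with 65.7% positive, beside 0.28 for the 46 mitotic genes left.

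CENPK had levels of 8.88 and 8.75 in gamma_ON, against 8.38 and 7.96 in gamma_OFF, a log2 fold change of 0.64 (SE 0.15, adjusted p = 0.0468). KIF20A had 10.25 and 10.23 in gamma_ON, against 9.83 and 9.64 in gamma_OFF, a log2 fold change of 0.50 (SE 0.12, adjusted p = 0.047). In both, each gamma_ON array was above each gamma_OFF array, but the gamma_OFF pair was spread more widely. Against CTRL, CENPK differed by 0.16 in gamma_ON (SE 0.15) and by -0.48 in gamma_OFF (SE 0.15), and KIF20A by 0.53 in gamma_ON (SE 0.12) and 0.03 in gamma_OFF (SE 0.12). Without gamma_OFF replicate 1 the log2 fold change was 0.85 for CENPK and 0.60 for KIF20A. Without gamma_OFF replicate 2 it was 0.43 and 0.41. It was 0.58 and 0.50 without gamma_ON replicate 1, and 0.71 and 0.51 without gamma_ON replicate 2. Neither call held when any array other than gamma_OFF replicate 1 was left out.

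PLK4 had the highest fold change of this comparison, with 9.16 and 8.90 in gamma_ON, against 8.63 and 8.10 in gamma_OFF (0.67, SE 0.18, adjusted p = 0.0561). MAD2L1 had 8.86 and 8.73 in gamma_ON, against 8.38 and 7.94 in gamma_OFF (0.63, SE 0.16, adjusted p = 0.0506). NDC80 and the centromere protein gene CENPI followed at 0.56 each (SE 0.15 and 0.16). None of these groups overlapped, and in each gene gamma_OFF replicate 2 was well below gamma_OFF replicate 1. CCNB2 differed by 0.53 (SE 0.14, adjusted p = 0.0561). SMC2 had 9.88 and 9.72 in gamma_ON, against 9.52 and 9.10 in gamma_OFF (0.49, SE 0.15, adjusted p = 0.0766). CKAP2, a spindle-pole protein gene, had 9.25 and 9.16 in gamma_ON, against 8.85 and 8.68 in gamma_OFF (0.44, SE 0.12, adjusted p = 0.0612). CDCA8 had 9.16 and 9.01 in gamma_ON, against 8.77 and 8.93 in gamma_OFF (0.23, SE 0.13, adjusted p = 0.23). These 4 genes again had no overlap.

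At the low end of each role group, arrays often overlapped. CKS2 had 10.45 and 10.55 in gamma_ON, against 10.48 and 10.70 in gamma_OFF (-0.09, SE 0.12, adjusted p = 0.635). AURKB had 10.47 and 10.43 in gamma_ON, against 10.45 and 10.53 in gamma_OFF (-0.04, SE 0.11, adjusted p = 0.823), and BIRC5 differed by -0.01 (SE 0.14). CDC20, the activator of the anaphase-promoting complex, had 10.80 and 10.76 in gamma_ON, against 10.63 and 10.80 in gamma_OFF (0.07, SE 0.12, adjusted p = 0.701). All of these overlapped. CENPA had 8.33 and 8.29 in gamma_ON, against 8.09 and 8.22 in gamma_OFF (0.15, SE 0.11, adjusted p = 0.37). SGO2 had 7.31 and 7.20 in gamma_ON, against 7.15 and 7.15 in gamma_OFF (0.10, SE 0.11, adjusted p = 0.547). These 2 did not overlap, whereas KIF2C and ECT2 did. KIF2C had 9.12 and 8.94 in gamma_ON, against 8.99 and 8.77 in gamma_OFF (0.15, SE 0.13, adjusted p = 0.426). ECT2 had 9.99 and 9.91 in gamma_ON, against 10.01 and 9.45 in gamma_OFF (0.22, SE 0.17, adjusted p = 0.394). The passenger complex had the lowest group median, 0.06, and the kinetochore the highest, 0.56. CDK1 had 8.87 and 8.85 in gamma_ON, against 8.55 and 8.35 in gamma_OFF (0.41, SE 0.12, adjusted p = 0.0705), with no overlap. CCNB1 had 9.58 and 9.60 in gamma_ON, against 9.52 and 8.74 in gamma_OFF (0.46, SE 0.21, adjusted p = 0.166). In both cyclin and kinase gamma_ON was the higher group. MKI67 had 10.18 and 10.09 in gamma_ON, against 9.89 and 9.91 in gamma_OFF (0.23, SE 0.12, adjusted p = 0.191). TOP2A had 11.44 and 11.40 in gamma_ON, against 11.38 and 11.09 in gamma_OFF (0.19, SE 0.13, adjusted p = 0.334). None of these overlapped, though gamma_OFF replicate 1 came close to gamma_ON in CCNB1 and TOP2A.

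**Figure D4:**
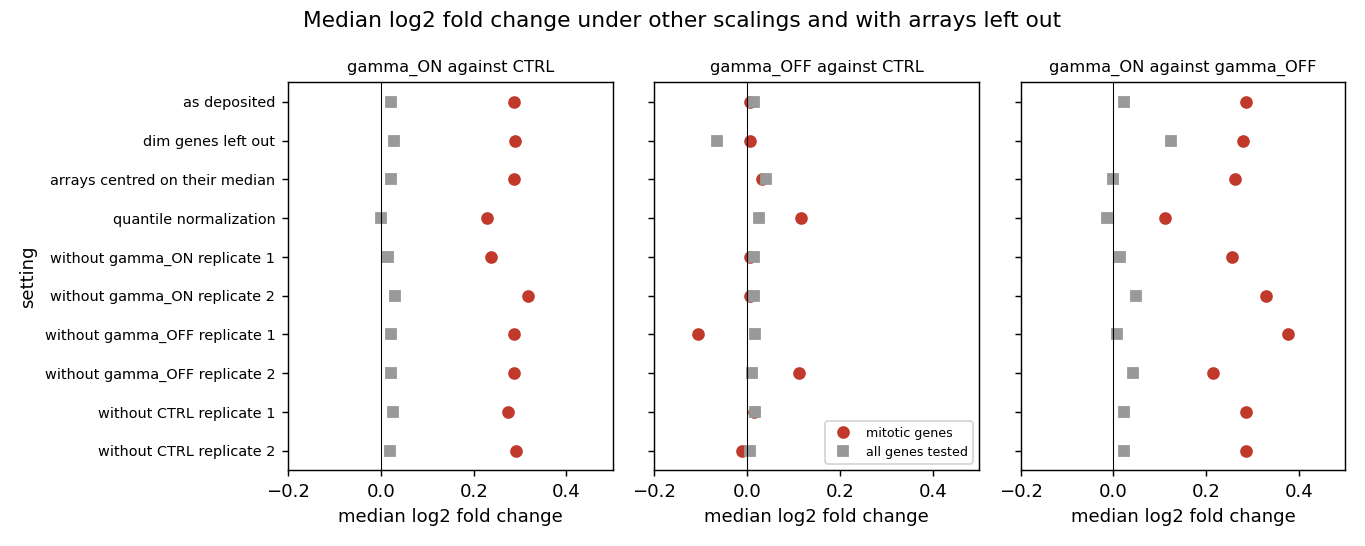
Median log2 fold change (x axis) of the mitotic genes (circles) and of all genes tested (squares) as deposited, under other scalings and with each array left out (y axis). For gamma_ON against CTRL the mitotic median stays between 0.23 and 0.32, for gamma_OFF against CTRL it runs from -0.11 to 0.12, and for gamma_ON against gamma_OFF it runs from 0.11 to 0.38.

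Genes with and without a CHR word were set side by side. The median log2 fold change of gamma_ON against CTRL was 0.30 for the 30 genes with a CHR word and 0.21 for the 12 without. For gamma_OFF against CTRL it was 0.00 with and -0.06 without, and for gamma_ON against gamma_OFF it was 0.26 with and 0.41 without, so the order of these groups of genes was not the same in each comparison. The 4 genes called above all lie on chromosome 5, as do 6 of the 47 mitotic genes, a property looked at after their values were seen. Over all 641 genes of chromosome 5 the median was 0.02 for gamma_ON against CTRL and -0.03 for gamma_OFF against CTRL. For gamma_ON against gamma_OFF it was 0.08. In this order 2.96%, 9.05% and 9.20% of them were called, against 1.48%, 8.84% and 5.85% of the genes on other chromosomes. The chromosome 5 calls were 9 higher and 10 lower, 12 higher and 46 lower, and 47 higher and 12 lower. Calls over all genes also leaned lower in gamma_OFF against CTRL and higher in gamma_ON against gamma_OFF. The part of chromosome 5 in the mitotic calls was not tested.

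Other genes of the mitotic programme were read from lists in the same way. Of 17 measured kinetochore genes outside the list, 14 were positive in gamma_ON against CTRL (median 0.24, 0 called), 7 in gamma_OFF against CTRL (median -0.01) and 17 in gamma_ON against gamma_OFF (median 0.31). CENPC, which anchors the kinetochore to centromeric chromatin, fell in gamma_OFF by 0.53 (SE 0.12, adjusted p = 0.0359), and CENPW, an inner kinetochore subunit gene, was higher in gamma_ON than in gamma_OFF by 0.54 (SE 0.12, adjusted p = 0.0445). Of 17 subunits and partners of the anaphase-promoting complex 0 were called in any comparison, with medians of 0.12, -0.11 and 0.34 in the same order. Of 18 other mitotic genes, STAG2, a cohesin subunit gene, rose in gamma_OFF against CTRL by 0.63 (SE 0.13, adjusted p = 0.0278), and SPAG5, the gene of the spindle protein astrin, was higher in gamma_ON than in gamma_OFF by 0.76 (SE 0.17, adjusted p = 0.0441). The medians of these 18 were 0.28, -0.02 and 0.27.

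The regulators of mitotic transcription gave 0 calls among 10 measured genes. FOXM1, the factor that activates late mitotic genes, had 9.51 and 9.38 in gamma_ON, 9.38 and 9.01 in gamma_OFF, and 8.85 and 8.97 in CTRL, with differences from CTRL of 0.53 in gamma_ON (SE 0.15, adjusted p = 0.123) and 0.29 in gamma_OFF (SE 0.15, adjusted p = 0.213). MYBL2, its partner in the MuvB complex, had 10.74 and 10.66 in gamma_ON, 10.68 and 10.53 in gamma_OFF, and 10.24 and 10.25 in CTRL, with differences of 0.46 (SE 0.12, adjusted p = 0.101) and 0.36 (SE 0.12, adjusted p = 0.0809). For both genes all 4 arrays with an H2A.X vector lay above both CTRL arrays. Of all genes, 30.0% were higher without overlap in gamma_ON than in CTRL, and 31.1% in gamma_OFF than in CTRL. The share of all genes that did both was not counted. Of 11 listed CDK inhibitors and brakes only CDKN2A and WEE1 had a row, and neither passed in any comparison. The DNA replication genes, which act a phase earlier, had 19 measured members with medians of 0.42, 0.10 and 0.30, against 0.29, 0.01 and 0.29 for the mitotic genes. TYMS, the thymidylate synthase gene, was the only one of them called, at 0.81 in gamma_ON against gamma_OFF (SE 0.12, adjusted p = 0.0103).

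Markers of cell states were measured beside these genes. Of 7 pluripotency markers 6 were measured, with a mean log2 level of 10.40 and 10.36 in gamma_ON, 10.35 and 10.47 in gamma_OFF, and 10.06 and 10.23 in CTRL. POU5F1, which has near-identical pseudogenes, rose in gamma_ON against CTRL by 0.71, and DNMT3B rose in gamma_OFF against CTRL by 0.46. Of 7 endoderm markers, 4 rose in gamma_ON against CTRL, 5 were higher in gamma_ON than in gamma_OFF, and in gamma_OFF against CTRL 1 rose and 3 fell. Their mean log2 level was 9.66 and 9.74 in gamma_ON, 7.87 and 7.94 in gamma_OFF, and 8.30 and 8.04 in CTRL, and the lowest level of any of them was 6.86. SOX17 and FOXA2, which specify endoderm, were called in no comparison. AFP, alpha-fetoprotein, had 11.17 and 11.37 in gamma_ON, 8.08 and 7.76 in gamma_OFF, and 6.93 and 6.86 in CTRL. AFP was the only endoderm marker that rose in gamma_OFF against CTRL. TTR, FGB and GATA6 fell there, with log2 fold changes of -0.96, -0.75 and -0.56, and APOB, at -0.48, was not called. Against CTRL, gamma_ON was called higher for AFP, APOB, TTR and FGB. Of 9 fibroblast markers 4 were measured, with a mean log2 level of 8.25 and 8.20 in gamma_ON, 7.88 and 7.74 in gamma_OFF, and 8.19 and 8.04 in CTRL. The fibroblast marker TAGLN fell in both gamma_ON and gamma_OFF against CTRL, by 0.62 and 0.55, and LUM was higher in gamma_ON than in gamma_OFF by 1.10. The part of these cell states in the mitotic values was not tested.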

How the data were processed

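RNA from 6 samples was hybridised to 1 array each, with 2 arrays per vector; groups and replicate numbers came from the sample descriptions. The authors deposited 1 log2 level for each row and array. RMA, a method that removes background, equalizes arrays and merges probes, and Partek 6.6 appear in the submitters' processing notes; for their options, the build and the annotation, nothing is given in the sources used here. That the scale is log2 was judged from RMA and from array medians over all rows of 6.11 to 6.25. Precision is limited by how few arrays there are.

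Of 53617 rows, 16098 had 1 gene symbol in a table from the platform annotation, 0 had several and 37519 were unnamed here. All 16098 gene identifiers matched RefSeq (GRCh38.p14). For 779 genes with several rows the brightest was used, which left 14884 genes. Differences were fitted with limma 3.58.1 (lmFit and eBayes) in R 4.3.3, in 1 fit over all 6 arrays with 3 residual and 6.05 prior degrees of freedom, with two-sided contrasts and Benjamini-Hochberg adjustment over all genes of a comparison. All adjusted p-values are limma's. With 2 against 2 arrays the smallest two-sided exact p is 0.333, and exact tests were therefore left out. The fit was tested on simulated data.

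The mitotic genes, the other lists and the tests were chosen with earlier results of these data known. Values on each array were given for every called mitotic gene and for CDK1, CCNB1, MKI67 and TOP2A. They were also given for the genes with the highest and the lowest fold change of each role group and comparison. Genes outside the list were named where called or as markers, with FOXM1 and MYBL2 always named. CDKN1A, also to be named always, had no named row. Further genes were named as examples after their values were seen. Alternatives changed the spread model, the arrays fitted, the scaling, the filter on dim genes, the row used for a gene and the threshold.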

Additional observations from a re-analysis of the deposited data

How the results depend on the processing

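For gamma_ON against CTRL the count of mitotic genes called, 1 of 47, was 2 with a limma trend, 11 with array weights, 4 with only both groups in the fit, 2 with dim genes left out and 2 at a threshold of 0.10; the count of all genes called, 230, was 386, 803, 487, 379 and 508 under these settings. For gamma_OFF against CTRL the mitotic count of 1 was 0 with array weights, 0 with only both groups in the fit, 2 after quantile normalization and 4 at 0.10, and the count of all genes, 1317, was 767, 567, 940 and 2941. For gamma_ON against gamma_OFF the mitotic count of 2 was 12 with a trend, 0 with array weights, 0 with only both groups, 14 with dim genes left out, 0 after centring, 0 after quantile normalization and 18 at 0.10; the count of all genes, 892, was 1628, 229, 275, 1819, 646, 469 and 3121. Shifts of the mitotic median were set against 0.1098, the median over the mitotic genes of each gene's SD within groups. That is a spread of single genes, not of the median. Among the settings that kept all 6 arrays, only quantile normalization moved the mitotic median further. It then stood at 0.12 for gamma_OFF against CTRL and 0.11 for gamma_ON against gamma_OFF, and the cause was not tested. Fewer genes are tested with dim genes left out, and fewer arrays set the spread in fits of only both groups.

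With each array left out in turn, between 0 and 4 mitotic genes and 34 and 487 genes in all were called for gamma_ON against CTRL, with a mitotic median of 0.24 to 0.32. For gamma_OFF against CTRL the ranges were 0 to 8, 131 to 3515 and -0.11 to 0.11. For gamma_ON against gamma_OFF they were 0 to 22, 49 to 4061 and 0.21 to 0.38. An arm left with a lone array was assumed to vary like the other groups.

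With the replicate number as a block, 1, 1 and 3 mitotic genes and 210, 1245 and 871 genes in all were called in the same order of comparisons; KIF20A had an adjusted p of 0.051 and HMMR 0.0356. The numbers do not show pairing: replicate deviations over genes correlated at -0.096 between gamma_ON and CTRL, -0.073 between gamma_OFF and CTRL and 0.088 between gamma_ON and gamma_OFF. No called mitotic gene changed sign under the alternatives run. Of the values of single genes, 750 kept direction and call with an array left out, 33 gained a call, 19 lost one and 44 changed sign without a call; under the other alternatives these counts were 1188, 42, 11 and 25.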
